A study of Mus musculus with 13 samples.

Results

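The mitochondrial ribosomal protein genes are the 77 genes, of 24328 listed for each library, whose symbol is Mrpl or Mrps followed by a number and, in a few cases, a letter a, b or c. All 77 had at least 10 estimated reads in total over the 13 libraries, and all 77 passed the filter on low counts used for the tests. By their known place in the ribosome, 50 encode proteins of the large subunit and 26 of the small subunit, and Mrps36 encodes a protein now assigned to the 2-oxoglutarate dehydrogenase complex. Mrps30 and Mrps18a were counted with the large subunit despite their names. A protein with a counterpart in bacteria is encoded by 45 of the genes, and a protein particular to mitochondria by 31. The libraries are mouse RNA sequencing libraries from bone marrow. There was 1 library of mature acute myeloid leukemia cells (mAML), 1 of leukemia stem cells (LSC), both labelled as tumor, and 1 of granulocyte-monocyte progenitors (GMP) labelled as wild type. The other 10 libraries were LSC under A-485, a compound that blocks the acetyltransferases p300 and CBP, with 2 libraries at each of 0, 8, 24, 48 and 72 h. The growth conditions in the labels name murine MLL-AF10 leukemia cells cultured with serum and WEHI-conditioned medium. The 0 h libraries were untreated, and the later times had no vehicle control. The sources used here give no dose. Nothing in the labels says that the 2 libraries of a time were grown apart, so the spread behind the p-values may be technical. Neither how the fusion was introduced nor whether the LSC were 1 clone or a pool of animals is given there.

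Mitochondria hold ribosomes of their own, which translate the few messenger RNAs made from mitochondrial DNA, all of them for core subunits of the respiratory chain and ATP synthase. The ribosomal RNAs of these particles come from mitochondrial DNA. Their proteins are encoded in the nucleus, made on cytosolic ribosomes and imported, so that the Mrpl and Mrps genes are transcribed like other nuclear genes. Leukemic stem cells of human acute myeloid leukemia are known to rely on oxidative phosphorylation, and human leukemia cells are sensitive to drugs that block mitochondrial translation. p300 and CBP acetylate histones at enhancers and promoters, and loss of that acetylation lowers the transcription of many of the genes concerned.

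The deposited values were estimated read counts per gene and transcript abundance (TPM), which corrects for transcript length. Total counts were 47257600 in mAML, 40468500 in LSC and 24532500 in GMP, and 6467760 to 9763280 in the time course. Counts are given below relative to library size (CPM), scaled by the trimmed mean of M-values (TMM), which assumes that most genes do not change. The direction of many changes depends on this choice. The TMM factors of the treated libraries were 1.03 to 1.07, against 0.830 and 0.831 in the untreated ones. Relative to 0 h, the median log2 change of all 11119 genes tested was 0.01, -0.03, -0.04 and -0.02 at 8, 24, 48 and 72 h under TMM, and 0.41, 0.43, 0.56 and 0.62 on the log2(TPM + 1) scale. Libraries also changed in make-up. Averaged over reads, transcripts were 3787 and 3670 nt long in the 72 h libraries, against 3128 and 3115 nt in those of 0 h. The nuclear-retained RNA Malat1 was at 745 and 819 TPM at 72 h, against 53.3 and 54.4 TPM at 0 h. Cytosolic ribosomal protein genes made up 19.6% and 20.8% of TPM at 72 h, against 28.7% and 29.9% at 0 h. The labelled identities were checked on fixed markers. The 7 progenitor markers summed to 1639 CPM in mAML, 24721 CPM in LSC and 34923 CPM in GMP. Mpo, Elane and Prtn3 led this sum in LSC and GMP, and Prtn3, Elane and Cd34 led it in mAML. The 6 targets of MLL fusions summed to 343 CPM in mAML, 523 CPM in LSC and 28.1 CPM in GMP. In the time course the progenitor sum was 150.3 to 152 CPM at 72 h, against 8312 to 9054 CPM at 0 h. Mpo and Ctsg led it at 0 h. At 72 h Cd34 alone gave 82.6% and 89.3% of it, and Mpo was at 0 in both libraries. The sum of the MLL-fusion targets was 723 to 879 CPM at 72 h, against 405 to 530 CPM at 0 h. What part these shifts have in the changes below was not tested.

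Summed per length, the 77 genes contributed between 0.469% and 0.775% of the transcripts of a library. Their summed TPM was 4694 in mAML, 5579 in LSC and 7378 in GMP. In the time course it was 6147 and 6179 TPM at 0 h, 7656 and 7750 TPM at 8 h, 5849 and 6509 TPM at 24 h, 5870.0 and 6160.0 TPM at 48 h, and 6294 and 6348 TPM at 72 h. Of the time course, only the 8 h libraries stood clear of the others; the 24, 48 and 72 h sums lay around those of 0 h. With TMM scaling the course looked different: the summed level averaged 3802 ± 4.82 CPM at 0 h, 3560 ± 75.6 CPM at 8 h, 2638 ± 194 CPM at 24 h, 2300.2 ± 170.0 CPM at 48 h and 2438 ± 28.0 CPM at 72 h (SD, n = 2 each). Here all libraries of 24, 48 and 72 h lay below those of 0 and 8 h. These are bulk libraries, in which fewer cells of a type and less RNA per cell cannot be told apart. Single genes spanned a wide range per length. The highest mean over the 13 libraries was that of Mrpl33, which encodes a short protein of the large subunit with a bacterial counterpart, at 417 TPM, followed by Mrps21 of the small subunit at 396 TPM. The lowest was Mrpl35 at 9.35 TPM. Their mean transcript lengths were 466 nt for Mrpl33 and 3695 nt for Mrpl35. Mrpl33 was the top gene on this per-length scale at 633 TPM in mAML, 549.9 TPM in LSC and 516 TPM in GMP.

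**Figure D1:**
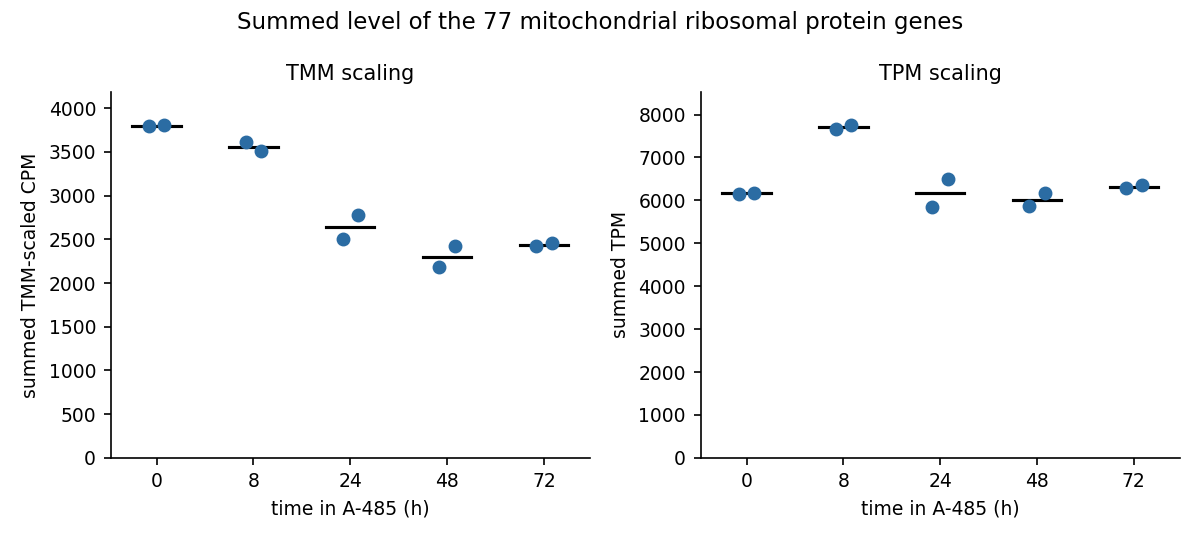
Summed level of the 77 genes in each of the 10 time-course libraries, as TPM (per transcript length) and as TMM-scaled CPM, with 1 point a library. Summed TPM was 7656 and 7750 at 8 h, above the 5849 to 6509 of the other times, whereas summed CPM averaged 2300.2 at 48 h and 3802 at 0 h.

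At 8 h of A-485 the genes as a group lay where other genes did, and a few single genes were called lower or higher. Under TMM scaling 11 of the 77 were called lower than at 0 h and 4 higher, where 21% of all genes tested were called lower and 17.9% higher (edgeR's quasi-likelihood test, Benjamini-Hochberg adjusted p under 0.05). The median log2 change of the 77 was -0.03, beside 0.01 for all genes. Both 8 h libraries lay below both 0 h libraries for 31 genes and above them for 20, and the remaining 26 overlapped; the shares among all genes were 36.4% and 36.7%. By TPM, 4 genes were called lower and 43 higher (12.2% and 43.7% of all genes), with a median of 0.39 beside 0.41 for all genes, so the position relative to other genes was nearly the same. Without 0 h replicate 1 or 2 the median of the 77 under TMM was 0.01 and 0.005, beside 0.06 and 0.05 for all genes. Without 8 h replicate 1 or 2 it was -0.06 and 0.0006, beside 0.004 and 0.007. Fewer genes were called in each case, among the 77 and among all genes.

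Mrpl12, Mrpl19, Mrpl44 and Mrps18b were called lower at 8 h under TMM, on the TPM scale and with the trend of change on transcript length removed. Mrpl12 encodes the protein of the flexible stalk that recruits elongation factors to the ribosome. It had 51.5 and 44.3 CPM at 8 h, against 99.4 and 92.7 CPM at 0 h. Both 8 h libraries lay well below both 0 h libraries, and the log2 change was -1.003 ± 0.13 (SE; edgeR's quasi-likelihood test, adjusted p = 0.000665). Mrpl19, of the large subunit, had 50.3 and 46.4 CPM at 8 h, against 90.0 and 90.2 CPM at 0 h (-0.90 ± 0.14, adjusted p = 0.0014). Mrpl44, a large-subunit protein with the fold of a double-strand RNase, had 53.4 and 59.7 CPM at 8 h, against 98.8 and 96.3 CPM at 0 h (-0.79 ± 0.12, adjusted p = 0.00136). Neither pair overlapped. Mrps18b, of the small subunit, had 19.9 and 20.1 CPM at 8 h, against 34.4 and 46.4 CPM at 0 h. The 8 h libraries were alike and lower, but the 0 h libraries differed between themselves: the log2 change was -1.01 ± 0.21 (adjusted p = 0.00573) and was -0.74 (adjusted p = 0.0581) without 0 h replicate 2. Mrpl33 (-0.74 ± 0.15, adjusted p = 0.0048) and Mrps35 (-0.69 ± 0.23, adjusted p = 0.0397) completed the 6 lowest called changes. By TPM they had -0.33 (limma, adjusted p = 0.0919) and -0.24 (adjusted p = 0.395), without a call, and Mrps35 also lost its call without any 1 of the 0 h, 8 h and 48 h libraries (-0.84 to -0.46).

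The promoters of Mrpl12, Mrpl44 and Mrps18b are shown because these genes were called lower from 8 h on, and that of Mrps25 because it was called lower at no time. RefSeq windows on GRCm38.p6 run from 250 bases before the annotated start to 50 after it, 5′ to 3′ on the gene's strand. In these windows capitals mark a match to the NRF1 motif, which reads GCGCA, any base and GCGC, or to the ETS motif CCGGAAG, on either strand.
Mrpl12, chr11:120484387-120484686, plus strand: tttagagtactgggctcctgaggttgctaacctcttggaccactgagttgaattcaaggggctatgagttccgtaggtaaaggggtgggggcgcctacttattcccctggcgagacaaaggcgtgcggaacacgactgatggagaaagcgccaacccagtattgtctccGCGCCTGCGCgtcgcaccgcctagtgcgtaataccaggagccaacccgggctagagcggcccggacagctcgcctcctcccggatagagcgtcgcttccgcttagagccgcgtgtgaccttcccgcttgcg
Mrpl44, chr1:79775768-79776067, plus strand: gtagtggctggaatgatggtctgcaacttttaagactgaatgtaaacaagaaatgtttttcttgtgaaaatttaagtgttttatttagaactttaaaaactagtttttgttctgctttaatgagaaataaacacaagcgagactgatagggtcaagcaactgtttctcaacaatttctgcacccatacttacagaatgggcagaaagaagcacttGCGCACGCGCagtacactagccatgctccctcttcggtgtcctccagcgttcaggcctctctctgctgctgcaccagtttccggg
Mrps18b, chr17:35916391-35916690, minus strand: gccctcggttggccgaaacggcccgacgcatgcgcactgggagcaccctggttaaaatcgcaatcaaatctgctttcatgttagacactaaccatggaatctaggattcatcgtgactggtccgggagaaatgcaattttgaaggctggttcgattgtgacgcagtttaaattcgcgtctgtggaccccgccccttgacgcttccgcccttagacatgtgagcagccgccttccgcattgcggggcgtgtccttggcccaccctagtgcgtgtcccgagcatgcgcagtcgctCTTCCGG
Mrps25, chr6:92183974-92184273, minus strand: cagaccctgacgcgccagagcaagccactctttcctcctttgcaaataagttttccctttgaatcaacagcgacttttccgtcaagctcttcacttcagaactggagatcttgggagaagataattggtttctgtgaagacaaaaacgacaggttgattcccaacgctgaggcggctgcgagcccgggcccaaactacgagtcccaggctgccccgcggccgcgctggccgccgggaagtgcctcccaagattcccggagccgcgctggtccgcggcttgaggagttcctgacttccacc
The Mrpl12 window held 1 NRF1 match beginning 81 bases before the start, and the Mrpl44 window 1 beginning 35 bases before it. The Mrps18b window held 1 ETS match on the opposite strand at base 44 of the transcript. In the Mrps25 window none of the 5 motifs searched was found. The windows shown were picked by the changes of their genes, and other genes differed. Mrps21 and Mrps26 had changes near 0 at 72 h, and both windows held NRF1 and ETS matches. Mrps10, Mrps15 and Mrpl23 were called lower at 72 h, and their windows held none of the 5 motifs. Whether the motifs relate to the changes was not tested.

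Over the 68 of the 77 genes that had a RefSeq window, the NRF1 motif was in those of 13 genes (19.1%), against 5.19% of 27025 genes. Those 27025 are all genes with a window and were not limited to genes expressed here, whereas the 68 all passed the low-count filter. The 2 sets are thus unlike. The ETS motif CCGGAAG was in 25 (36.8%, against 9.93%) and the YY1 motif AAGATGGCG in 8 (11.8%, against 1.64%). The E-box CACGTG, the site type bound by MYC with MAX, was in 5 (7.35%, against 8.09%), and the TATA box TATAAA also in 5 (7.35%, against 15.7%). Both strands were searched, the ETS and YY1 motifs can share their AAG letters, and a match is a run of letters, not a shown binding site. NRF1, the ETS factor GABP and YY1 are known regulators of nuclear genes for mitochondrial proteins. Under TMM scaling their own messages passed the test at neither 8 h nor 72 h, while on the TPM scale Nrf1 (0.63 and 0.67) and Gabpa (0.60 and 0.80), though not Yy1, were called higher at both times. Nrf1 was at 49.2 and 49.4 CPM at 72 h, against 49.5 and 45.2 CPM at 0 h, with log2 changes of 0.20 at 8 h (edgeR's quasi-likelihood test, adjusted p = 0.218) and 0.06 at 72 h (0.708). Gabpa, which encodes the DNA-binding part of GABP, changed by 0.16 at 8 h (adjusted p = 0.32) and 0.10 at 72 h (0.49), and Yy1 by -0.26 (0.24) and -0.40 (0.0691).

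The 4 genes called higher at 8 h were Mrpl27, Mrpl4, Mrpl10 and Mrps25. Mrpl27, whose bacterial counterpart reaches into the peptidyl transferase centre, had 42.9 and 41.8 CPM at 8 h, against 25.6 and 23.5 CPM at 0 h, a log2 change of 0.79 ± 0.19 (edgeR's quasi-likelihood test, adjusted p = 0.0119). Mrpl4, whose product lines the exit tunnel, had 76.8 and 80.2 CPM at 8 h, against 48.6 and 58.0 CPM at 0 h (0.56 ± 0.14, adjusted p = 0.0145). Mrpl10, whose product anchors the stalk to the ribosome, had 80.3 and 83.5 CPM at 8 h, against 65.8 and 54.0 CPM at 0 h (0.45 ± 0.13, adjusted p = 0.0249). In these 3 genes both treated libraries exceeded both untreated ones, and all 3 were also called higher on the TPM scale and with the length trend removed. Mrps25 of the small subunit was higher by 0.29 ± 0.09 (adjusted p = 0.0292) and lost the call with the length trend removed. These rises rested on few libraries. Without 0 h replicate 2 the change of Mrpl27 was 0.77 (adjusted p = 0.0665) and that of Mrpl10 0.36 (adjusted p = 0.119), and without 0 h replicate 1 that of Mrpl4 was 0.48 (adjusted p = 0.0778). Without 8 h replicate 2, Mrpl4 had 0.53 (adjusted p = 0.0658) and Mrpl10 0.43 (adjusted p = 0.0992). Mrps25 lost the call without any 1 of the 0 h and 8 h libraries.

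By 24 h many more of the genes were lower. Under TMM scaling 36 of 77 were called lower than at 0 h and 0 higher, where 27.1% of all genes were called lower and 23.2% higher, and 41 did not pass the test. At 48 h the calls were 57 lower and 0 higher, beside 30.5% and 25.2% of all genes. The median log2 change of the 77 was -0.50 at 24 h and -0.80 at 48 h, and those of all genes were -0.03 and -0.04. Both treated libraries lay below both 0 h libraries for 62 genes at 24 h (40.2% of all genes) and 68 at 48 h (43.5%), and above them for 1 gene at each time (36.6% and 39.7%). By TPM the counts were 13 lower and 9 higher at 24 h (14.4% and 45.9% of all genes) and 21 and 12 at 48 h (15.7% and 52.2%). There the medians of the 77 were 0.01 and -0.14, beside 0.43 and 0.56 for all genes, so the median of the group lay below that of all genes on both scales, but near 0 by TPM. Without 0 h replicate 1 the 24 h median of the 77 was -0.44 under TMM, beside 0.01 for all genes. Fewer genes were then called, among the 77 and among all genes.

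Mrps28 had the lowest change at both times. It encodes a small-subunit protein with a bacterial counterpart. Its levels were 24.6 and 26.3 CPM at 0 h, 20.8 and 21.7 CPM at 8 h, 5.29 and 8.30 CPM at 24 h, 4.20 and 4.50 CPM at 48 h, and 5.63 and 6.93 CPM at 72 h. The 8 h libraries were only a little below those of 0 h, and every later library was far below both. The log2 changes against 0 h were -1.90 ± 0.26 at 24 h (edgeR's quasi-likelihood test, adjusted p = 0.000538) and -2.55 ± 0.27 at 48 h (adjusted p = 0.000104). Mrpl12 stayed low over the whole course, with levels of 99.4 and 92.7 CPM at 0 h, 51.5 and 44.3 CPM at 8 h, 28.1 and 27.4 CPM at 24 h, 23.1 and 25.7 CPM at 48 h, and 26.7 and 26.4 CPM at 72 h. Its changes were -1.79 ± 0.13 (adjusted p = 3.79e-05) at 24 h and -1.98 ± 0.14 (adjusted p = 1.46e-05) at 48 h. Mrps18b and Mrpl19 were next at 24 h, with -1.49 ± 0.21 (adjusted p = 0.000669) and -1.37 ± 0.14 (adjusted p = 0.000135). At 48 h the next were Mrps27, a pentatricopeptide repeat protein of the small subunit, with -1.54 ± 0.20 (adjusted p = 0.00028), and Mrps10 with -1.51 ± 0.18 (adjusted p = 0.000219). Mrps10 belongs to the head of the small subunit and had 14.9 and 13.2 CPM at 48 h, against 42.2 and 37.7 CPM at 0 h.

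**Figure D2:**
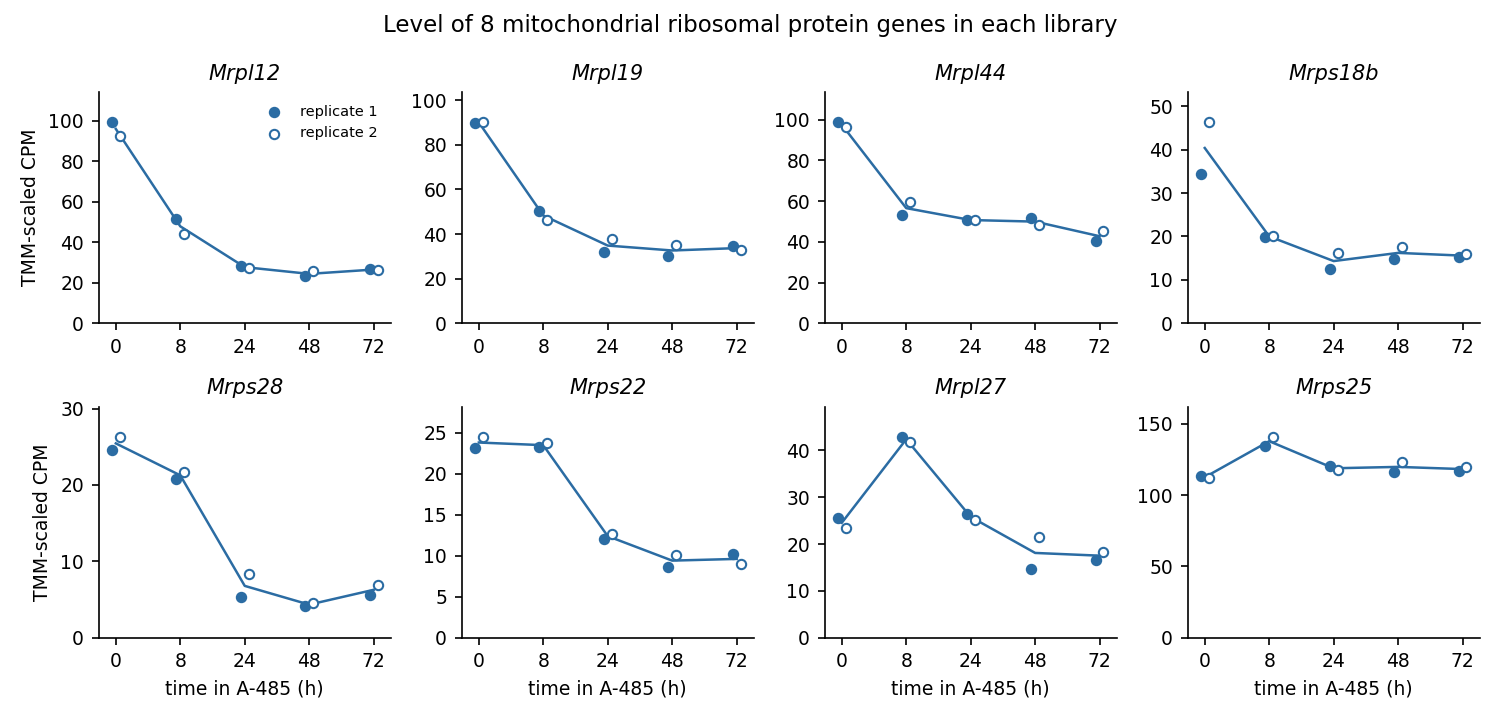
TMM-scaled CPM of 8 of the genes at 0, 8, 24, 48 and 72 h of A-485, with 1 point a library and a line through the means. Mrpl12 was at 51.5 and 44.3 CPM at 8 h, Mrps28 was still at 20.8 and 21.7 CPM then and at 4.20 and 4.50 CPM at 48 h, Mrpl27 was at 42.9 and 41.8 CPM at 8 h and at 16.6 and 18.4 CPM at 72 h, and Mrps25 was at 117 and 119 CPM at 72 h.

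At 72 h 48 of the 77 genes were called lower than at 0 h and 0 higher under TMM scaling, beside 29.4% and 25.9% of all genes. The median log2 change of the 77 was -0.58, against -0.02 for all genes. Both 72 h libraries lay below both 0 h libraries for 68 genes (41.8% of all genes) and above for 1 (39.1%). By TPM, 14 were called lower and 17 higher (14.7% and 54.9% of all genes), with a median of 0.09 beside 0.62 for all genes. The sign of the group's median at 72 h thus turned with the scaling, while its place below the median of all genes did not. Without 0 h replicate 1 the median of the 77 was -0.55 under TMM, beside 0.03 for all genes. Fewer genes were then called, among the 77 and among all genes. Sums of some marker lists moved in the same libraries. Those of the T and NK cell, erythroid and stromal lists were carried by 1 or 2 genes each, of which Nkg7, Tfrc and Pecam1 are also expressed by myeloid cells. T and NK cell markers summed to 2.99 to 3.13 CPM at 72 h, against 54.4 to 100.4 CPM at 0 h, where Nkg7 gave 82.9% and 88.4% of the sum, 3 of the 15 genes reached 1 CPM, and Cd3e, Cd2, Cd5, Cd4, Ncr1 and Gzma were at 0. Erythroid markers summed to 32.2 to 37.8 CPM at 72 h, against 277 to 330.4 CPM at 0 h, where 3 of 12 reached 1 CPM, nearly all of it Tfrc and Hbb-b2, and Slc4a1 was at 0. Stromal and endothelial markers summed to 235 to 399 CPM at 72 h, against 902 to 1017 CPM at 0 h, of which Pecam1 gave at least 99.4% at both times, with Cdh5 at 0 throughout. The 8 mature myeloid markers, of which 7 reached 1 CPM at both times, summed to 811 to 925 CPM at 72 h, against 3884 to 5124 CPM at 0 h. Ly6c2 alone gave 69% and 64.3% of that sum at 0 h. Itgam gave 73.7% and 68.2% of it at 72 h, with 598 and 631 CPM, against 833 and 731 CPM at 0 h. The B cell markers did not exceed 1.07 CPM in any library of the course. The part of these in the changes was not tested. Over the 4 treated times tested together, 57 of the 77 were called, where 59.8% of all genes were.

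The lowest changes at 72 h were those of Mrps28 (-2.01 ± 0.26, adjusted p = 0.000287), Mrpl12 (-1.86 ± 0.13, adjusted p = 1.77e-05), Mrps10 (-1.59 ± 0.18, adjusted p = 0.000169), Mrpl19 (-1.42 ± 0.14, adjusted p = 7.2e-05), Mrpl30 (-1.38 ± 0.15, adjusted p = 0.000128) and Mrps18b (-1.37 ± 0.21, adjusted p = 0.000743), by edgeR's quasi-likelihood test. Mrps10 had 12.6 and 13.9 CPM at 72 h, against 42.2 and 37.7 CPM at 0 h, and Mrpl30, of the large subunit, had 28.7 and 28.6 CPM at 72 h, against 74.5 and 75.03 CPM at 0 h. In none of these 6 genes did the 2 times overlap. They were among 13 genes called lower under TMM, TPM and the removed length trend alike: Mrpl12, Mrpl18, Mrpl19, Mrpl23, Mrpl30, Mrpl44, Mrpl45, Mrpl51, Mrps10, Mrps15, Mrps18b, Mrps22 and Mrps28. No gene was called higher under all 3. At 8 h that count was 4 lower and 3 higher, at 24 h 13 and 0, and at 48 h 19 and 0. The share of all genes called under all 3 was not counted, so these counts cannot be set against other genes. On the TPM scale alone 12.2%, 14.4%, 15.7% and 14.7% of all genes were called lower at 8, 24, 48 and 72 h. Called higher on that scale were 43.7%, 45.9%, 52.2% and 54.9%.

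Some of the genes had changes near 0 under TMM scaling at 72 h. Mrps25 had 117 and 119 CPM at 72 h, against 113 and 112 CPM at 0 h (0.07 ± 0.09, adjusted p = 0.514), and Mrpl4 had 56.9 and 55.7 CPM at 72 h, against 48.6 and 58.0 CPM at 0 h (0.08 ± 0.14, adjusted p = 0.658). The libraries of both times were close in each gene. By TPM the same 2 genes were called higher, by 0.76 (limma, adjusted p = 0.000345) and 0.77 (adjusted p = 0.00068). Mrps21, which stood second in mean TPM, had 37.2 and 44.7 CPM at 72 h, against 39.4 and 40.8 CPM at 0 h (0.03 ± 0.17, adjusted p = 0.886). Mrpl52, Mrps24, Mrps26 and Mrps31 also had changes between 0.06 and 0.09 at 72 h, without a call. The genes of this group were picked after their values were seen.

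**Figure D3:**
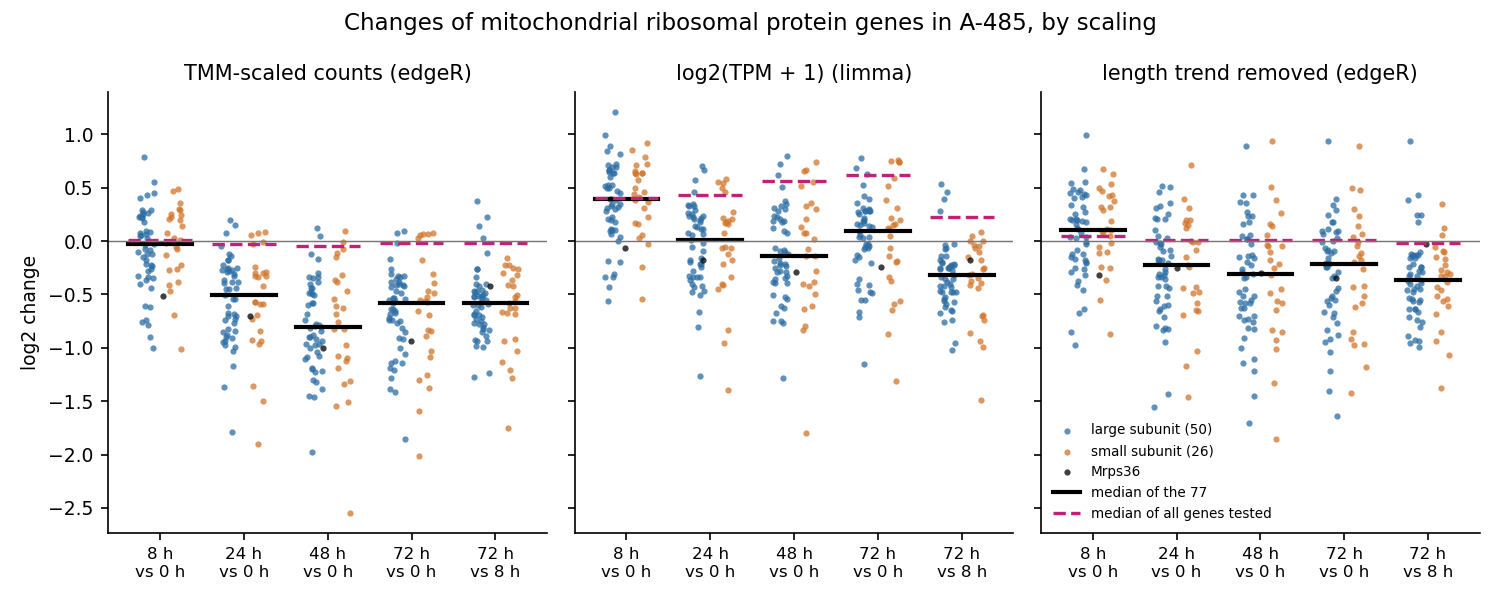
Log2 changes of the 77 genes at each treated time against 0 h, and at 72 h against 8 h, under TMM scaling, on the log2(TPM + 1) scale and with the trend on transcript length removed, with 1 point a gene and lines at the medians of the 77 and of all genes tested. Under TMM the median of the 77 was -0.80 at 48 h beside -0.04 for all genes, and on the TPM scale, where the direction of the group flips at 8, 24 and 72 h, it was -0.14 at 48 h beside 0.56.

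The change between 8 and 72 h sets no library against those of 0 h, whose TMM factors stood apart, although these stayed in the fit. In it 46 of the 77 genes were called lower at 72 h than at 8 h and 0 higher, beside 17.2% and 15.1% of all genes. The median was -0.58, against -0.02 for all genes. Both 72 h libraries lay below both 8 h libraries for 68 genes (33.7% of all genes) and above for 0 (32.2%). By TPM, 25 were called lower and 1 higher (11.2% and 28.9% of all genes), with a median of -0.32 beside 0.23, so that here the group's direction was the same on both scales. With a fit of only the 8 and 72 h libraries, 33 were lower and 0 higher (13.1% and 9.95% of 10651 genes). The median of the 77 under TMM was -0.55 and -0.59 without 8 h replicates 1 and 2, beside -0.0008 and -0.006 for all genes. Without 72 h replicates 1 and 2 it was -0.57 and -0.59, beside -0.03 and -0.02. Fewer genes were called in each case, among the 77 and among all genes. Mrps28 fell most (-1.76 ± 0.26, adjusted p = 0.00142, edgeR's quasi-likelihood test). Mrps22, a small-subunit protein particular to mitochondria, had 10.3 and 8.97 CPM at 72 h, against 23.2 and 23.7 CPM at 8 h (-1.29 ± 0.19, adjusted p = 0.0013). It had been at 23.1 and 24.5 CPM at 0 h, level with 8 h. Mrpl27, one of the genes that rose at 8 h, had 16.6 and 18.4 CPM at 72 h, against 42.9 and 41.8 CPM at 8 h (-1.27 ± 0.19, adjusted p = 0.00172). Its 72 h libraries lay below those of 0 h as well. Mrpl16, of the large subunit, had 19.9 and 17.6 CPM at 72 h, against 38.9 and 49.4 CPM at 8 h (-1.24 ± 0.19, adjusted p = 0.00176).

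Both subunits held genes called lower at every time, where 21%, 27.1%, 30.5% and 29.4% of all genes were called lower at the 4 times. Of the 50 large-subunit genes 8, 23, 38 and 31 were called lower than at 0 h at 8, 24, 48 and 72 h, with median log2 changes of -0.06, -0.48, -0.81 and -0.61. Of the 26 small-subunit genes 3, 12, 18 and 16 were called lower, with medians of 0.02, -0.49, -0.72 and -0.57. At 8 h 3 large-subunit and 1 small-subunit genes were called higher, and none later. On the TPM scale the medians of the large subunit were 0.37, 0.03, -0.18 and 0.07 and those of the small subunit 0.45, 0.01, -0.03 and 0.12, so the sign depended on the scaling in both. Among genes with a bacterial counterpart 7, 21, 36 and 31 of 45 were called lower (medians 0.01, -0.45, -0.82 and -0.64), and among those particular to mitochondria 4, 14, 20 and 16 of 31 (medians -0.07, -0.50, -0.74 and -0.53). No test of one class against the other was made.

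Values of the 3 stalk genes varied. Mrpl12 was called lower at every time, whereas Mrpl10, which anchors it, was higher at 8 h and at -0.02 (edgeR's quasi-likelihood test, adjusted p = 0.918) at 72 h. Mrpl11, at the stalk base, changed by 0.24 (adjusted p = 0.374) at 8 h and fell by 72 h (-0.54, adjusted p = 0.0478). That call was lost on the TPM scale (0.16), with the replicate block (-0.54, adjusted p = 0.0641), with DESeq2 (-0.53, adjusted p = 0.0802) and with no filter on low counts (-0.53, adjusted p = 0.0533). The levels of Mrpl11 were 32.2 and 34.2 CPM at 0 h, 44.1 and 34.2 CPM at 8 h, 20.5 and 28.5 CPM at 24 h, 21.5 and 22.3 CPM at 48 h, and 24.7 and 21.0 CPM at 72 h. Its 72 h libraries lay below those of 0 h, and those of 8 h level with them or above. The S18 paralogs varied as well. Mrps18b was called lower from 8 h on. Mrps18a changed by 0.04 (adjusted p = 0.887) at 8 h and -0.38 (adjusted p = 0.15) at 72 h, without a call, and its 72 h value was 0.30 on the TPM scale. Mrps18c changed by 0.25 (adjusted p = 0.393) at 8 h and was called lower at 72 h (-0.69, adjusted p = 0.0275). The Mrps18c call was lost on the TPM scale (-0.0657, limma, adjusted p = 0.696) and with the length trend removed (0.0662, adjusted p = 0.762). The differences between paralogs were not tested.

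Around the exit tunnel and the membrane, changes at 72 h ranged widely. Mrpl44 fell by 72 h (-1.19 ± 0.12, adjusted p = 8.48e-05, edgeR's quasi-likelihood test), with levels of 98.8 and 96.3 CPM at 0 h, 53.4 and 59.7 CPM at 8 h, 50.6 and 50.8 CPM at 24 h, 51.7 and 48.1 CPM at 48 h, and 40.3 and 45.2 CPM at 72 h. All later libraries lay below both 0 h libraries. Mrpl45, which in human mitochondria anchors the ribosome to the inner membrane, had -1.28 ± 0.14 (adjusted p = 0.000117), and Mrpl23, at the tunnel exit, had -1.21 ± 0.18 (adjusted p = 0.000648). Mrpl22, which lines the tunnel, had -0.58 ± 0.20 (adjusted p = 0.0339), and Mrpl24, also at the exit, had -0.26 ± 0.13 (adjusted p = 0.125), without a call. Mrpl47, a neighbour of the exit, fell (-0.82 ± 0.28, adjusted p = 0.0354). Mrpl3, which reaches toward the peptidyl transferase centre, fell too (-0.40 ± 0.13, adjusted p = 0.028). Neither passed on the TPM scale (-0.13 and 0.29) or with the length trend removed (-0.33 and -0.16). Both also lost their calls with DESeq2 (-0.81 and -0.39) and with library size alone (-0.45 and -0.04). In the small subunit, Mrps2 (-0.55 ± 0.15, adjusted p = 0.0133) and Mrps27 (-1.09 ± 0.19, adjusted p = 0.00163) fell, while Mrps12 of the decoding centre (-0.47 ± 0.20, adjusted p = 0.0733) and Mrps6 (-0.57 ± 0.32, adjusted p = 0.159) did not pass. Mrps2 and Mrps27 lost their calls on the TPM scale (0.15 and -0.37). Mrps30, in the large subunit, had -0.77 ± 0.15 (adjusted p = 0.0026), and Mrps36, outside the ribosome, had -0.94 ± 0.18 (adjusted p = 0.00272). The TPM values of these were -0.07 and -0.24, without a call. Mrps36 also lost its call with the length trend removed (-0.34). Without 0 h replicate 1 or 0 h replicate 2, Mrpl3, Mrpl11, Mrpl47, Mrps2 and Mrps18c lost their calls at 72 h (adjusted p from 0.0645 to 0.181). Without either 48 h library Mrpl11 did so, without 72 h replicate 1 Mrpl11, Mrpl47 and Mrps18c, and without 72 h replicate 2 Mrpl3, Mrpl11, Mrpl47 and Mrps2.

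Most of these transcripts are short, and short transcripts had lower medians than all genes over the course. The mean transcript length of the 77 genes ranged from 407 to 6712 nt with a median of 1043 nt, against 2764 nt for all genes tested, and 55 of the 77 were under 1500 nt. The 2058 tested genes under 1500 nt had median log2 changes of -0.14, -0.36, -0.53 and -0.46 at 8, 24, 48 and 72 h under TMM. The 55 short members had -0.05, -0.54, -0.85 and -0.64, and the 22 members of 1500 nt or more 0.02, -0.44, -0.76 and -0.56. Of the longer members 1, 9, 17 and 15 were called lower at the 4 times. With a smooth trend of change on transcript length removed from all genes, the medians of the 77 were 0.11, -0.22, -0.31 and -0.21, beside 0.05, 0.01, 0.01 and 0.01 for all genes. The counts were then 5 lower and 8 higher at 8 h (20.3% and 19.7% of all genes), 23 and 4 at 24 h (25.1% and 23.5%), 30 and 5 at 48 h (27.8% and 25.2%), and 26 and 4 at 72 h (28.2% and 25.6%). Between 72 and 8 h they were 26 and 2 (16.6% and 13.8%). Across the 77 genes, which share the same libraries, Pearson's r of the log2 change with log2 length was -0.01, -0.02, 0.05 and 0.02 at the 4 times, against 0.08, 0.16, 0.19 and 0.17 across all genes.

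**Figure D4:**
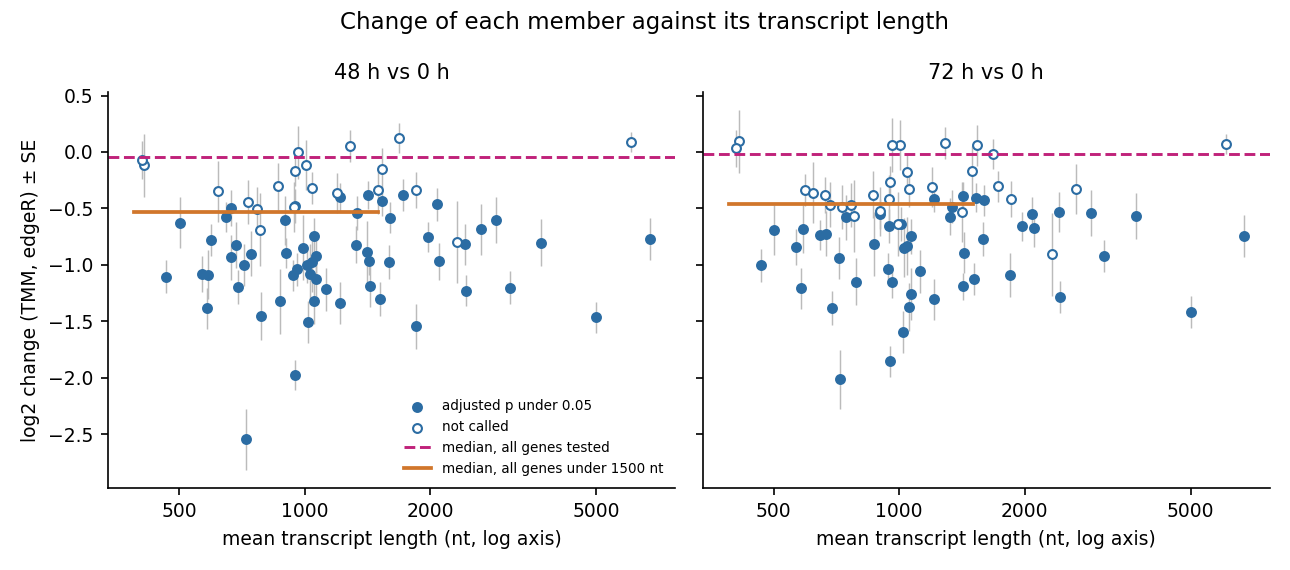
Log2 change (with its SE) of each of the 77 genes at 48 and 72 h against 0 h under TMM scaling, by mean transcript length on a log axis. Filled points passed the test, the dashed line is the median of all genes, and the orange line is the median of all genes under 1500 nt (-0.53 at 48 h and -0.46 at 72 h); the 22 genes of 1500 nt or more had medians of -0.76 and -0.56, and on the TPM scale the group's median turned above 0 at 72 h.

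Under TMM the cytosolic ribosomal protein genes were lower sooner, while the nuclear genes of the respiratory chain had medians close to those of the 77. Shares of all genes called lower at 8, 24, 48 and 72 h were 21%, 27.1%, 30.5% and 29.4% under TMM. On the TPM scale they were 12.2%, 14.4%, 15.7% and 14.7%. Of 80 tested cytosolic ribosomal protein genes, 65, 70, 76 and 76 were called lower at 8, 24, 48 and 72 h under TMM, with medians of -0.56, -0.67, -1.19 and -1.21. They were thus low already at 8 h, when the mitochondrial genes had a median of -0.03. Of 77 genes of the respiratory chain and ATP synthase 14, 48, 62 and 55 were called lower, with medians of -0.03, -0.45, -0.71 and -0.60. On the TPM scale the medians were -0.15, -0.17, -0.50 and -0.52 for the cytosolic genes, of which 9, 23, 63 and 62 were called lower, and 0.37, 0.02, -0.01 and 0.04 for the respiratory genes. The 3 groups share all their libraries, and no test was made between them.

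Other genes of mitochondrial translation were mixed. Shares called higher among all genes were 17.9%, 23.2%, 25.2% and 25.9% at 8, 24, 48 and 72 h under TMM. Shares called lower among all genes were 21%, 27.1%, 30.5% and 29.4% at 8, 24, 48 and 72 h, and the assembly factors and the translation factors were near these shares or below them at every time. Of 7 mitochondrial ribosomal proteins with other names, 3, 4, 6 and 4 were called lower at 8, 24, 48 and 72 h under TMM and 0 higher, with medians of -0.46, -0.75, -0.87 and -0.90, or -0.02, -0.23, -0.18 and -0.21 on the TPM scale. Dap3, which encodes a GTP-binding protein of the small subunit, had 56.8 and 56.2 CPM at 72 h, against 117 and 127 CPM at 0 h (-1.11 ± 0.14, adjusted p = 0.000238, edgeR's quasi-likelihood test). Its 2 times did not overlap, and it was already lower at 8 h (-0.57 ± 0.13, adjusted p = 0.0108). Chchd1 of the small subunit had -1.15 ± 0.20 (adjusted p = 0.00161) at 72 h, and Gadd45gip1 of the large subunit -0.96 ± 0.16 (adjusted p = 0.00132). Of 23 assembly and rRNA modification factors 2, 7, 6 and 5 were lower and 2, 2, 2 and 4 higher. Noa1, a GTPase of small-subunit assembly, had -0.89 ± 0.15 (adjusted p = 0.0011) at 72 h, and Tfb1m, the methyltransferase of the small ribosomal RNA, had -1.26 ± 0.31 (adjusted p = 0.00834). Of 13 translation factors 0, 3, 4 and 4 were lower and 3, 2, 2 and 1 higher. The elongation factor genes Tufm (-0.97 ± 0.15, adjusted p = 0.00091), Tsfm (-1.24 ± 0.25, adjusted p = 0.003) and Gfm1 (-0.48 ± 0.13, adjusted p = 0.0141) fell by 72 h. Among 20 mitochondrial tRNA synthetases 2, 7, 11 and 8 were lower and 3, 2, 2 and 2 higher. Iars2, for the isoleucine enzyme, fell (-0.68 ± 0.13, adjusted p = 0.00224), and Hars2, for the histidine enzyme, rose (0.78 ± 0.12, adjusted p = 0.000834). On the TPM scale, of the genes named here, Dap3, Chchd1 and Hars2 kept their calls at 72 h. Gadd45gip1, Noa1, Tfb1m, Tufm, Tsfm, Gfm1 and Iars2 did not, with changes of -0.55 to 0.23. Median log2 changes at 72 h were 0.02 for the assembly factors under TMM and 0.62 on the TPM scale, -0.16 and 0.48 for the translation factors, and -0.36 and 0.31 for the synthetases.

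Genes that act on mitochondrial DNA and RNA, and nuclear regulators of mitochondrial genes, were mixed. Of all genes 21%, 27.1%, 30.5% and 29.4% were called lower at 8, 24, 48 and 72 h under TMM. Those called higher were 17.9%, 23.2%, 25.2% and 25.9%. Of 16 genes for mitochondrial DNA transcription and RNA handling 5, 8, 8 and 6 were called lower and 0 higher at the 4 times under TMM. Lrpprc, which stabilizes mitochondrial messenger RNAs, had -1.20 ± 0.15 (adjusted p = 0.000263) at 72 h (edgeR's quasi-likelihood test), and Hsd17b10, a subunit of mitochondrial RNase P, -0.86 ± 0.13 (adjusted p = 0.000835). Peo1, which encodes the Twinkle helicase, had -1.09 ± 0.23 (adjusted p = 0.00446). On the TPM scale Lrpprc kept its call (-0.48), and Hsd17b10 and Peo1 did not (-0.17 and -0.35). The polymerase gene Polrmt (0.13 ± 0.17, adjusted p = 0.541) and Tfam, which packages mitochondrial DNA (0.02 ± 0.14, adjusted p = 0.915), did not pass under TMM and were called higher on the TPM scale (0.80 and 0.70). Of the 9 tested regulators 3, 3, 4 and 3 were lower and 1, 1, 1 and 2 higher. Myc, whose product activates genes of ribosome synthesis and of mitochondria, had 27.8 and 11.3 CPM at 8 h and 5.63 and 1.67 CPM at 72 h, against 447 and 497 CPM at 0 h. Every treated library was far below the untreated ones, with log2 changes of -4.59 ± 0.68 (adjusted p = 0.00124) at 8 h and -7.02 ± 0.80 (adjusted p = 0.000161) at 72 h. The coactivator genes Ppargc1b and Pprc1 fell at 8 h (-3.30 ± 0.63, adjusted p = 0.00401, and -0.85 ± 0.17, adjusted p = 0.00451). Whether any of these bears on the ribosomal protein genes was not tested.

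Between the single libraries there is no replicate and therefore no test; brackets hold the 95% exact binomial interval, which covers counting error only. In LSC 17 of the 77 genes were at least 1.5-fold lower than in GMP and 0 at least 1.5-fold higher, beside 17.3% and 21.4% of all 9018 genes considered. The median log2 ratio was -0.31, beside 0.03 for all genes, and -0.52 beside -0.20 on the TPM scale, with 34 lower and 0 higher (26.3% and 13.8% of all genes). At least 2-fold lower were 2 genes and higher 0, beside 8.13% and 10.9% of all genes. Mrpl16 was at 21.5 CPM in the LSC library, against 51.9 CPM in that of GMP, a log2 ratio of -1.27 [-1.40, -1.15]. Mrpl38, particular to mitochondria, had 16.8 CPM in the LSC library, against 33.9 CPM in that of GMP (-1.01 [-1.16, -0.87]). Mrpl22 (-0.96 [-1.12, -0.81]) and Mrpl47 (-0.90 [-1.08, -0.74]) were next. The highest ratios were those of Mrpl57 (0.53 [0.41, 0.65]), Mrpl24 (0.40 [0.31, 0.49]), Mrpl17 (0.33 [0.23, 0.42]) and Mrpl14 (0.30 [0.14, 0.46]), none of which reached 1.5-fold. The cytosolic ribosomal protein genes had a median of 0.18 in the same pair and the respiratory chain genes -0.32. Beside these ratios, the erythroid markers summed to 111 CPM in LSC and 250.1 CPM in GMP, most of it Tfrc in both, and the stromal markers to 31.3 CPM in LSC and 112 CPM in GMP, most of it Pecam1. Their part was not tested.

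In mAML 9 of 76 genes considered were at least 1.5-fold lower than in LSC and 2 at least 1.5-fold higher, beside 16.2% and 19.9% of 9135 genes; Mrps6 was under 10 CPM in both libraries. The median log2 ratio was -0.30, beside -0.04 for all genes, and -0.36 beside -0.11 on the TPM scale. Mrpl51 was at 48.8 CPM in the mAML library, against 95.2 CPM in that of LSC (-0.96 [-1.04, -0.89]), and Mrpl44 at 35.8 CPM in the mAML library, against 68.7 CPM in that of LSC (-0.94 [-1.03, -0.85]). Mrps5 (-0.74 [-0.86, -0.63]) and Mrps10 (-0.68 [-0.82, -0.55]) followed. Mrpl52, of the large subunit, went the other way, with 37.1 CPM in the mAML library, against 16.0 CPM in that of LSC, a log2 ratio of 1.21 [1.08, 1.35]. Mrpl4 (0.61 [0.51, 0.72]) also passed 1.5-fold, and Mrpl16 (0.48 [0.35, 0.61]) and Mrpl33 (0.31 [0.25, 0.36]) did not. With the length trend removed the median was -0.10, beside 0.02 for all genes. Sums of markers of other cells were higher in the mAML library, though not every marker was. All 15 T and NK cell markers reached 1 CPM there, summing to 196 CPM in mAML and 72.2 CPM in LSC, where Cd3e, Cd3g and Ncr1 were at 0. The 12 erythroid markers summed to 1293 CPM in mAML and 111 CPM in LSC, the 8 B cell markers to 69.6 CPM in mAML, against 36.2 CPM in LSC, and the 10 stromal markers to 214 CPM in mAML, against 31.3 CPM in LSC. In LSC Nkg7 gave 97.2% of the T and NK sum, at 70.2 CPM, against 21.0 CPM in mAML. Tfrc gave 97.3% of the erythroid sum in LSC, and Hba-a1 led that sum in mAML with 46.4%. Cd79b was at 42.6 CPM in mAML, against 35.2 CPM in LSC, and Cd22 was at 23.1 CPM in mAML. Pecam1, which myeloid cells also express, gave 73.7% of the stromal sum in mAML and 68.1% in LSC. The 8 mature myeloid markers summed to 16523 CPM in mAML, against 3833 CPM in LSC. Their part in the ratios was not tested.

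The widest gap was between mAML and GMP, where 40 of 77 genes were at least 1.5-fold lower in mAML and 1 higher, beside 24.2% and 28.5% of 9300 genes. The median log2 ratio was -0.61, beside 0.01 for all genes. On the TPM scale it was -0.89 beside -0.28, with 58 lower and 1 higher (36.2% and 20.4% of all genes). At least 2-fold differences numbered 13 lower and 1 higher, beside 12.5% and 19.2% of all genes. Mrps5, with a bacterial counterpart near the entry of messenger RNA, was at 22.8 CPM in the mAML library, against 62.2 CPM in that of GMP (-1.45 [-1.57, -1.34]). Mrps22 (-1.23 [-1.40, -1.08]), Mrpl47 (-1.22 [-1.40, -1.06]) and Mrpl50 (-1.21 [-1.34, -1.09]) were the next lowest. Mrpl52 was the gene that was higher, at 37.1 CPM in the mAML library, against 17.0 CPM in that of GMP (1.12 [0.98, 1.28]), followed by Mrpl33 (0.56 [0.50, 0.63]), Mrpl57 (0.18 [0.06, 0.31]) and Mrpl14 (0.15 [-0.01, 0.31]). Of large-subunit genes 25 and of small-subunit genes 15 were at least 1.5-fold lower. Cytosolic ribosomal protein genes had a median of -0.28 and respiratory chain genes -0.43 in this pair. The T and NK cell markers summed to 196 CPM in mAML and 397 CPM in GMP, nearly all of the sum in GMP being Nkg7, and the erythroid markers to 1293 CPM in mAML and 250.1 CPM in GMP. The 3 pairs share their libraries, so their ratios are not independent.

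Mrpl12 and Mrps18b, which fell early under A-485, were lowest in mAML among these libraries, as were most of the 77 genes. The ratio of mAML over LSC was below 0 for 67 of 76 genes, beside 4868 of all 9135. That of mAML over GMP was below 0 for 71 of 77, beside 4598 of all 9300. Mrpl19 and Mrpl44, which also fell by 8 h, were lowest in mAML too, at 50.9 and 35.8 CPM. Mrpl12 was at 54.9 CPM in mAML, 72.0 CPM in LSC and 119 CPM in GMP, with log2 ratios of -0.73 [-0.80, -0.65] for LSC over GMP and -0.39 [-0.47, -0.31] for mAML over LSC. Mrps18b was at 21.7 CPM in mAML, 34.4 CPM in LSC and 46.2 CPM in GMP, with ratios of -0.43 [-0.54, -0.32] and -0.66 [-0.78, -0.54]. None of these intervals included 0. Mrps25 had 5.04 TPM in mAML, 6.24 TPM in LSC and 11.02 TPM in GMP, and 21.5 to 37.9 TPM in the 10 time-course libraries.

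**Figure D5:**
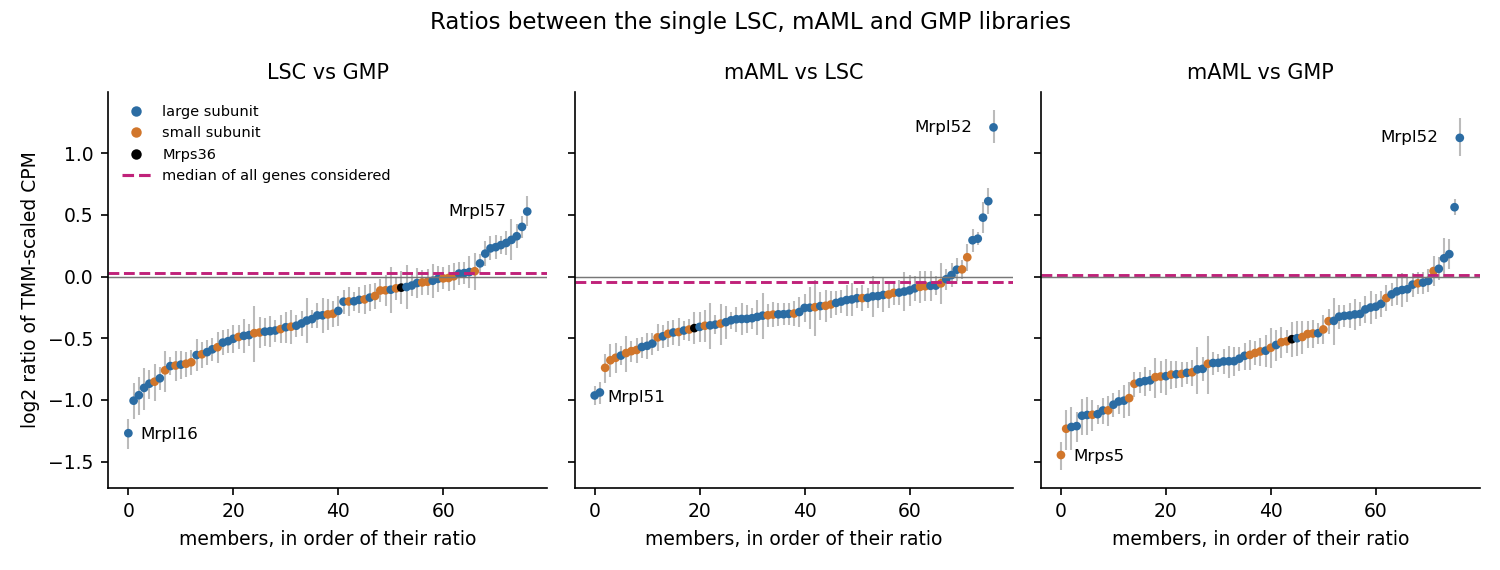
Log2 ratios of TMM-scaled CPM for LSC over GMP, mAML over LSC and mAML over GMP, with 95% counting intervals, each panel ordered by ratio and coloured by subunit. The medians were -0.31, -0.30 and -0.61, and Mrpl52 lies at the top of both mAML panels with ratios of 1.21 and 1.12.

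Some counts could hold reads of a neighbour. In the GENCODE M21 annotation on GRCm38, 17 of the 77 genes had an exon overlapping an exon of another gene, 15 of them on the opposite strand, and the labels do not state whether strand was used in counting. They include Mrpl18, Mrpl19, Mrpl24, Mrpl27, Mrpl47, Mrpl51, Mrps6, Mrps25, Mrps26 and Mrps27 of the genes described above, so the levels of these are less certain.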

How the data were processed

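STAR, RSEM and the build mm9 are named in the submitters' processing notes, with no version or setting. The authors' files hold, per the file headers, an expected count (an estimated number of reads, not scaled) and TPM (transcript abundance scaled for length and depth within the library) for each of 24328 genes. The 77 members and the gene lists were chosen with earlier results of these data known.

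Expected counts were rounded. The 10 time-course libraries (6467760 to 9763280 counts) were fitted together with edgeR 4.0.16 in R 4.3.3: TMM scaling, filterByExpr (11119 genes tested), a term for time without a replicate block, and the quasi-likelihood test with Benjamini-Hochberg adjustment over all genes tested and calls at an adjusted p under 0.05. The SE is approximate, taken from the log2 change and its F value. The common biological coefficient of variation was 0.186. TPM were tested with limma 3.58.1 on log2(TPM + 1), which understates changes of low genes. The length trend was removed with lowess offsets of span 0.3. Single libraries were compared by the log2 ratio of CPM with a prior count of 5, a minimum of 10 CPM in the higher of both and a threshold of 1.5-fold, with 95% exact binomial intervals. TMM was computed separately for the single libraries and the time course. Other settings were DESeq2 1.42.0, library size alone, no filter, a replicate block, only the 2 times compared and each library left out. The scripts were tested on simulated data.

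Genes named by rule were the 6 lowest and 6 highest called changes at 8 and 72 h, the 4 and 4 at 24 h, at 48 h and between 72 and 8 h, the 4 and 4 ratios of each pair of single libraries, 14 fixed members, the highest and lowest mean TPM, and up to 3 genes of each other list. Mrpl22, Mrpl23, Mrpl24 and Mrpl45 at 72 h and genes said to be so were added after their values were seen. Promoter windows are RefSeq's on GRCm38.p6; 9 of the 77 genes had none. Since the counts were made on mm9, no coordinates of the counted genes are given.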

Additional observations from a re-analysis of the deposited data

Results flagged for a closer look

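For 4 genes the level differed between 72 and 8 h of A-485, in a direct test of 72 h against 8 h within the fit of all 10 libraries (edgeR's quasi-likelihood test, n = 2 libraries a time). They are the 4 lowest of the 46 genes called lower. Mrps28 had a log2 change of -1.76 (adjusted p = 0.00142), Mrps22 of -1.29 (adjusted p = 0.0013), Mrpl27 of -1.27 (adjusted p = 0.00172) and Mrpl16 of -1.24 (adjusted p = 0.00176). In a fit of only the 8 and 72 h libraries all 4 were called lower too. On the log2(TPM + 1) scale the same changes were -1.49, -0.996, -1.02 and -0.96. Mrpl27 is the gene among them that was called higher at 8 h, and Mrpl27 shares exon sequence with a gene on the opposite strand. Over the same interval the read-averaged transcript length was 3787 and 3670 nt at 72 h, against 3299 and 3469 nt at 8 h, and the part of this in the changes was not tested.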

How the results depend on the processing

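The count of members called lower and higher depended on the scaling. At 8, 24, 48 and 72 h against 0 h it was 5 and 19, 21 and 3, 35 and 3, and 24 and 3 with library size alone, where 13.7% and 36.7%, 18.1% and 37.6%, 21% and 39.7%, and 20% and 41.5% of all genes were called; 4 and 43, 13 and 9, 21 and 12, and 14 and 17 with limma on log2(TPM + 1); and 5 and 8, 23 and 4, 30 and 5, and 26 and 4 with the length trend removed. For 72 against 8 h it was 25 and 1 under TPM and 26 and 2 without the length trend. With only the 2 times compared, 2 were higher at 8 h (14.5% of all genes) and 33 lower for 72 against 8 h. DESeq2 and no filter moved no count by over 1.5 times. The median of the members turned above 0 at 8 h with library size alone (0.28), TPM (0.39) and the length trend removed (0.11), and without 0 h replicate 1 (0.0109), 0 h replicate 2 (0.0051) or 8 h replicate 2 (0.00058), in a range of -0.0558 to 0.0109 over libraries left out. Under TPM it was 0.0092 at 24 h and 0.094 at 72 h. Leaving out 1 library gave 4 to 12 lower and 1 to 5 higher at 8 h, 22 to 39 lower at 24 h, 40 to 57 at 48 h, 31 to 52 at 72 h and 24 to 49 for 72 against 8 h, and 0 higher after 8 h.

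The replicate block left 9 lower and 4 higher at 8 h, 37 lower at 24 h, 55 at 48 h, 47 at 72 h and 47 for 72 against 8 h, with 0 higher after 8 h. Of all 11119 genes 2295, 2971, 3341, 3220 and 1846 were called lower in the same comparisons. Those called higher were 1902, 2527, 2750, 2822 and 1608. The numbers are not shown to pair the samples, since the correlation of replicate differences between times ran from -0.44 to 0.66 over 10 pairs of times. With the block and the length trend removed, the counts were 4 and 7, 20 and 3, 29 and 4, and 26 and 3 against 0 h and 21 and 2 for 72 against 8 h, and the 8 h median was 0.11. Of all 11119 genes 2221, 2736, 3055, 3065 and 1743 were then called lower. Those called higher were 2047, 2541, 2752, 2782 and 1497.

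Single genes changed sign where they had no firm call. At 8 h these were Mrps30 (0.0516 with library size, 0.18 under TPM), Mrpl47 (0.0646 under TPM), Mrps18a (-0.10 to 0.22 with 1 library left out, -0.0435 without 0 h replicate 1), Mrps18c (-0.0160 to 0.49) and Mrps2 (-0.0691 to 0.14). At 72 h they were Mrps12 (0.15 without the length trend, 0.14 with the block too, 0.19 under TPM), Mrps6 (0.0169 with block and length, 0.11 under TPM), Mrps18a (0.11, 0.11 and 0.30), Mrps18c (0.0662 without the length trend, 0.0661 with the block too), Mrpl3 (0.29), Mrpl11 (0.16) and Mrps2 (0.15 under TPM). Mrpl3, Mrpl11, Mrps2 and Mrps18c were called lower at 72 h under TMM. Beyond the scaling itself, the cause was not tested.

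Between single libraries, LSC against GMP had 34 lower under TPM and 2 at 2-fold (26.3% and 8.13% of all genes). For mAML against LSC, 1 was higher with library size, under TPM and at 2-fold, 4 were lower without the length trend and 0 at 2-fold. In that pair 12.7% of all genes were higher and 7% lower at 2-fold, and 17.2% were higher under TPM. Shares of all genes with library size or without the length trend were not counted for the single libraries. For mAML against GMP, 2 were higher without the length trend and 13 lower at 2-fold (12.5% of all genes at 2-fold). With 1 library a group, no spread between samples is known there.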
